A study of Bos taurus with 2 samples.

Results

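The large subunit of the cytosolic ribosome is built from ribosomal RNA and a fixed set of proteins whose genes carry symbols beginning with RPL. Its members here were all non-control probes of a bovine oligonucleotide array whose gene name was RPL followed by a number, with or without a final A, or RPLP0, RPLP1 or RPLP2. They numbered 45 genes of the 16894 gene names on the array, read by 177 distinct probes in 180 spots. Whole blood RNA from Holstein cattle (Bos taurus) was labelled with the green dye Cy3 and hybridised to 1 array for a specimen of low feed efficiency and 1 array for a specimen of high feed efficiency. Low feed efficiency corresponds to high residual feed intake, the feed eaten beyond what size and production require. The labels name no genotype, treatment, age or number of animals behind a specimen, and both specimens share breed, tissue and labelling. The comparison asks how blood gene expression differs between the phenotypes. Because each phenotype has a single array, nothing here has a replicate check and no p-value is given.

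Ribosomal proteins of the large subunit hold the ribosomal RNA in shape around the site where peptide bonds form, line the tunnel through which the new protein leaves, and carry the stalk that recruits elongation factors. Their messenger RNAs begin with a run of pyrimidines, the terminal oligopyrimidine tract, through which mTOR signalling adjusts their translation as a group. In blood these messages come from white cells, platelets and the youngest red cells, since the mature red cells of cattle have no ribosomes. In RNA of mixed cells, fewer cells of a type and less RNA per cell cannot be told apart.

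Array intensities are the median pixel value of a spot minus a fixed background of 25, without unit. The arrays differed in brightness, with a 75th percentile over probes of 98 for low and 81 for high efficiency, so a gene with equal scaled levels reads brighter on the low efficiency array. Differences below are on the log2 scale, low efficiency minus high efficiency after division by that percentile, and are given relative to the median of all 10312 genes above background on both arrays, which was -0.04 before this centring. They are called relative differences. A gene takes the value of its probe with the highest mean over both arrays, called its brightest, and probe intensity does not rank genes by abundance because probes differ in how well they bind. On the array, 22000 probes lay above background in both specimens (24329 on the low efficiency array and 22718 on the other), where background ended at 10.9 on either array. Markers of whole blood were present: all 19 genes fixed for red cells, neutrophils, monocytes, T, B and natural killer cells, platelets and leukocytes as a whole lay above background on both arrays.

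Every one of the 45 genes was above background on both arrays by at least 1 probe. Their brightest probes read from 4469 to 56779 in low feed efficiency, with a median of 30379. In high feed efficiency they read from 4341 to 52648, with a median of 25015. Over all genes the medians were 150 and 123. The large subunit sat at the bright end of both arrays. Of the 467 probes on the array that read at least 10000 in low feed efficiency, 109 belonged to these genes, and in high feed efficiency 95 of 422 did.

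None of the 180 member spots had a saturated pixel on either array, against 7 of 43803 probe spots on the low efficiency array and 1 on the other. The brightest member spot in low feed efficiency belonged to RPLP1, with a pixel median of 56804, which is 86.7% of the full scale of 65535. In high feed efficiency it belonged to RPLP0, at 52673 or 80.4% of full scale. By the scanner's own count, saturation set no bound on any member's difference. In the scanner software 109 member spots were flagged good, 61 were unflagged and 10 were flagged as not found in low feed efficiency, with 118, 50 and 12 in high feed efficiency.

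**Figure D1:**
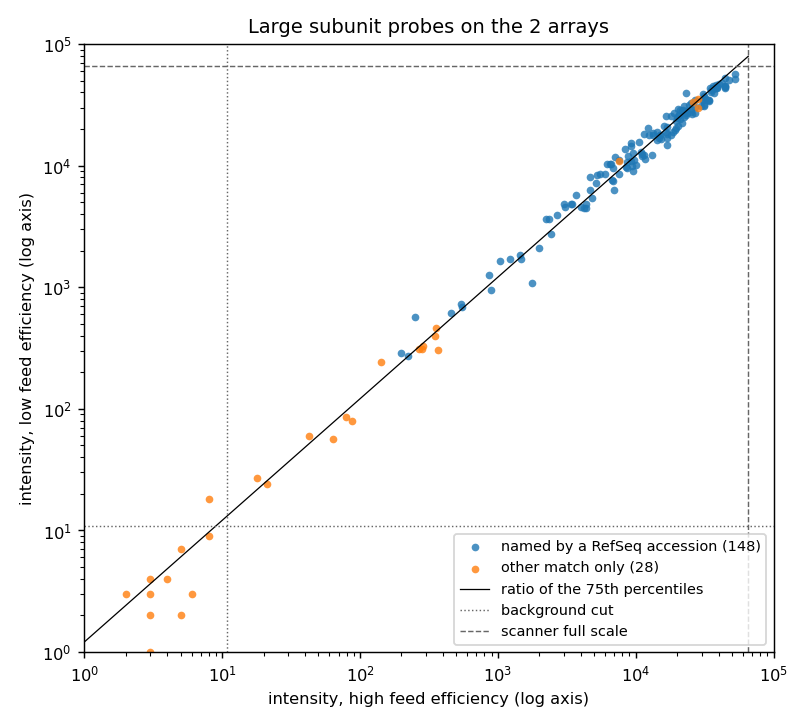
Intensity of each large subunit probe in low feed efficiency (vertical, log axis) against high feed efficiency (horizontal, log axis), with the background cut of 10.9 and the scanner's full scale drawn in; 1 RPL37A probe below 0 on both arrays is left out. Most probes named by a RefSeq accession are bright (7 of 148 read under 1000 in low feed efficiency) and lie near the line of the 75th percentiles. Exceptions include probes of RPLP0 (1077 against 1763, low against high) and RPL37A (568 against 251). Every probe below background is of the other kind.

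How a probe was matched went with how bright it was. For 148 probes, covering 44 genes, the array's match list gave a RefSeq accession found in the gene table used. All 148 lay above background on both arrays, with a median of 17974 on the low and 15148 on the high efficiency array. The other 29 probes, from 24 genes, had no such accession and rested on other records, such as expressed sequence tags, cDNA clones or transcript models. Of these 16 lay above background on both arrays, with a median of 310 and 284. The 13 probes without a value on both arrays all came from this group: 11 read below background on both, a probe of RPL35A read 18 in low against 8 in high feed efficiency, and a probe of RPL28 at 27 and 18 was left out because its spot was flagged as not found. RPL22, a protein near the tunnel exit, was the gene with no RefSeq-matched probe, and its 2 probes read 10960 against 7564 and 60 against 43. Some probes cannot be assigned to a single transcript, since 77 of the 177, from 26 genes, were listed with more than 1 Ensembl transcript, and signal of near-identical copies may be mixed in them. The median relative difference was 0.10 over these 77 probes and -0.01 over the 66 listed with 1 transcript, with an SD over probes of 0.25 in both.

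Counts of genes or probes past a fold use the scaled differences before centring, unlike the relative differences given for single genes. No large subunit gene was 2-fold apart, under this or any other processing tried. At 1.5-fold the count was also 0, but it depended on the processing: RPL15 passed with normexp, quantile normalization, loess and the authors' deposited table, RPL9 also with loess, and 8 of 45 members passed with scaling on spike-in controls, all higher in low feed efficiency. Over all genes 0.921% were at least 2-fold apart (0.359% higher and 0.562% lower in low feed efficiency). At least 1.5-fold apart were 5.8% (2.66% higher and 3.14% lower), while among the 464 genes at least as bright as the dimmest member, RPL28, these shares were 0.216% and 3.02%. A count of 0 among 45 is not far from what such shares give and is no result about the members, nor is 8 of 45 under spike-in scaling, where 19.9% of all genes passed. Of all genes 37 were 2-fold higher and 58 lower in low feed efficiency, but 228 and 20 with scaling on spike-in controls, under which all genes had a median of 0.34 and every one of the 45 members read higher in low feed efficiency before centring. The members' relative differences are the same under that scaling.

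The members ran from -0.26 to 0.54 in relative difference, with a median of -0.004 and an SD over genes of 0.21. There were 21 above and 24 below the median of all genes, where 50% of all genes lie above. Genes of like brightness lay lower: of the 464, 26.3% were above the median of all genes, and the 419 that are no members had a median relative difference of -0.15, with quartiles of -0.31 and -0.01, against quartiles of -0.14 and 0.15 for the members. With loess, which removes a trend of the difference with signal, 33 of 45 members were on the upper side and their median was 0.11. Counts above or below the median in the groups below are to be read beside these shares, 50% and 26.3%.

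**Figure D2:**
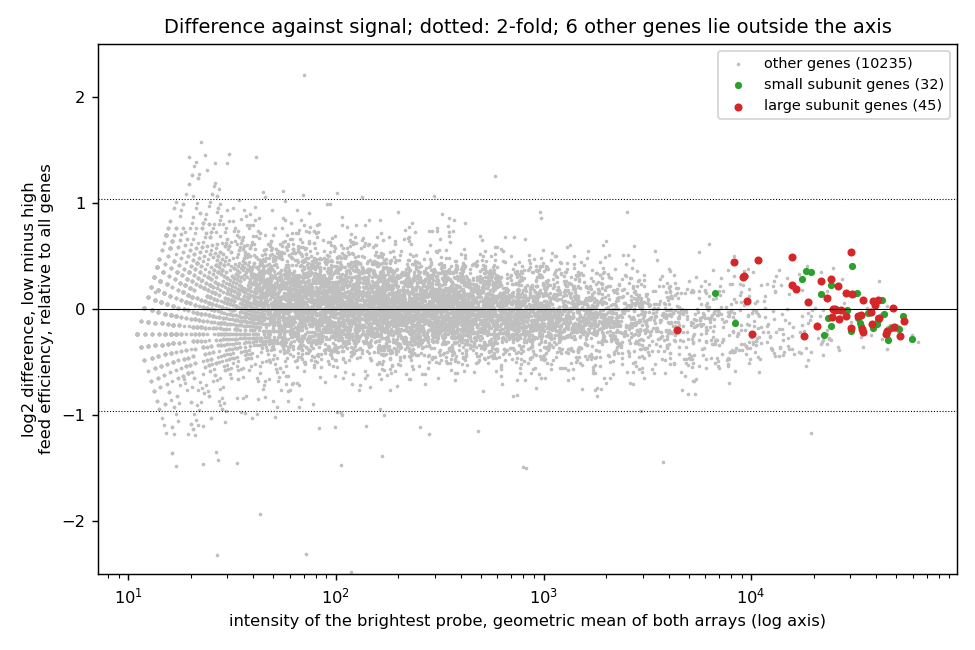
Relative log2 difference (vertical) against the intensity of the gene's brightest probe (horizontal, geometric mean of both arrays, log axis), for large subunit genes, small subunit genes and all others. The 45 large subunit genes lie at the right, between -0.26 and 0.54 and inside the dotted 2-fold lines.

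Measurement error could be read directly from RPL32, whose probe was printed in 4 spots on each array. In low feed efficiency these spots read 30790, 32375, 23325 and 31234, a mean of 29431 ± 4125 (SD over 4 spots, 1 array). In high feed efficiency they read 25522, 26643, 22076 and 26089, or 25083 ± 2056. The third spot was dimmest on both arrays, and the relative differences of the spots were 0.04, 0.05, -0.16 and 0.02, an SD of 0.10. The pooled SD over spots of a probe was 0.07 for 4 probes that averaged at least 1000 in low feed efficiency. It was 0.21 for 32 dimmer probes, so the error of RPL32 does not hold at low signal. Spots of one array share the RNA, so these SDs cover printing and scanning and not animals.

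Probes of the same gene gave a second measure of error. In the 40 genes with several probes above background (159 probes), the pooled SD over probes of a gene was 0.17, and the SD of the gene means was 0.20. Over the 4994 genes with several probes these were 0.26 and 0.25. Restricting both to probes of at least 1000 on both arrays gave a pooled SD of 0.12 for 39 members and 0.12 for 387 genes in all, or 0.118 and 0.125 to a further digit, a set of all genes that includes the members. The share of variance between genes was 66.2% over member probes (83.0% at 1000 or more), against 58.8% over all genes (80.2%). Noise alone raises this uncorrected share, and more so with fewer probes a gene. Members had 159 probes in 40 genes, against 13055 in 4994, so the shares are not directly comparable. In 26 of the 40 members every probe lay on one side of the median of all genes, or 65.0%, against 58.7% of all genes with several probes. With probes of at least 1000 the order was the other way, 71.8% of members against 75.7% of all genes. These shares also depend on the number of probes a gene has. The brightest and next brightest probe of a gene had relative differences that correlated with Pearson's r = 0.71 over 40 members (Spearman's rho 0.77) and 0.35 over all 4994 genes (rho 0.44). With probes of at least 1000 most of that gap was gone, at r = 0.71 over 39 members (rho 0.76) and 0.66 over 387 genes (rho 0.67). The values are a description across genes, whose probes share both arrays and their RNA.

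**Figure D3:**
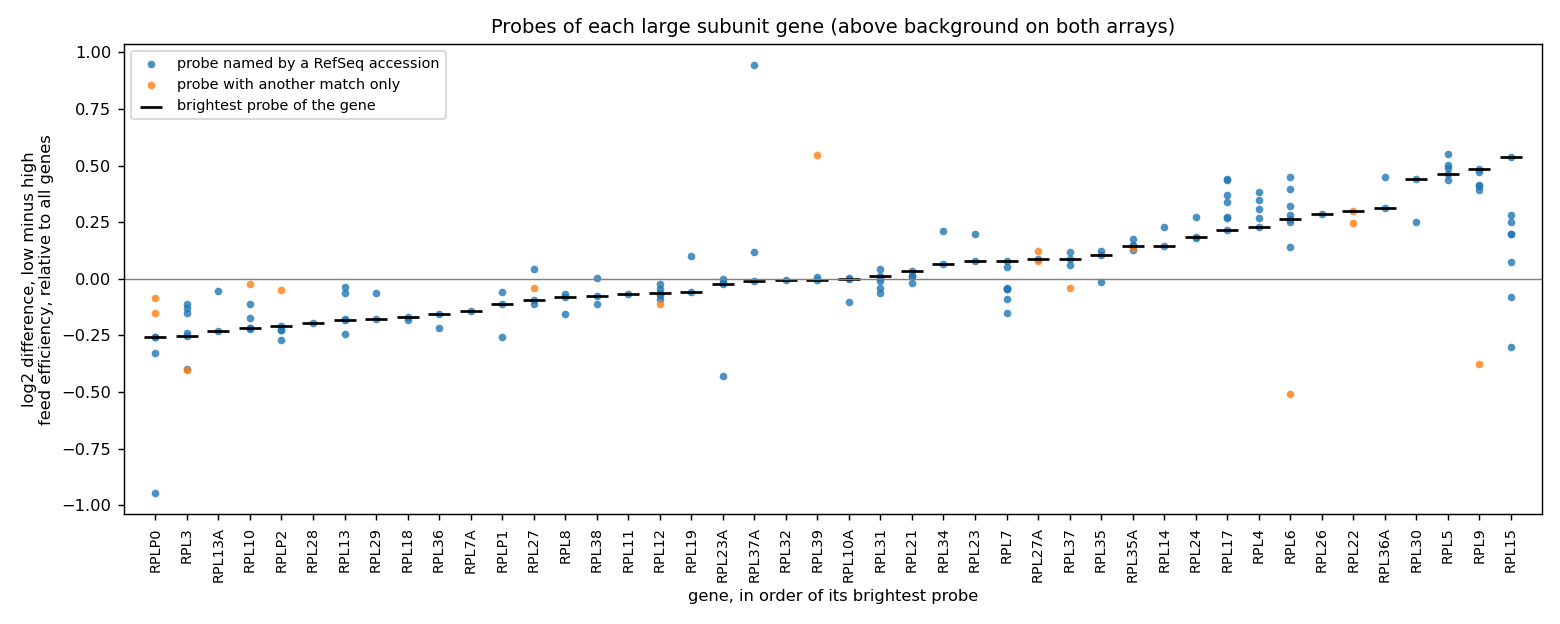
Relative log2 difference of 162 large subunit probes above background on both arrays, from 44 of the genes (points, coloured by how the probe was matched) and of the brightest probe (bar), with genes in order along the horizontal axis. Probes of RPL5 and RPL35A sit close together on the upper side. Those of RPL17 all lie on the upper side and those of RPLP2 and RPL3 on the lower side, more widely spread. RPL15, RPL6, RPL9, RPL37A and RPLP0 have probes far from the rest.

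The acidic stalk is the flexible arm that catches elongation factors. RPLP0 anchors it, RPLP1 and RPLP2 form its mobile dimers, and RPL12 sits at its base. All 4 genes lay below the median of all genes, with a median relative difference of -0.16. Most of the 464 genes of like brightness did so too, with 26.3% above. RPLP0 had the lowest value of all members, -0.26, at 51868 against 52648 (low against high feed efficiency, as in all such pairs below). Its 6 probes ran from -0.95 to -0.08. The farthest, at 1077 against 1763, was 1 of 2 member probes at least 1.5-fold apart, where 6.6% of all probes were. No member probe was 2-fold apart, against 1.04% of all probes. Without it the RPLP0 probes reached no lower than -0.33. RPLP2 read 45414 and 44556, a relative difference of -0.21, and its 5 probes lay between -0.27 and -0.05. RPLP1, the brightest member in low feed efficiency at 56779 against 52085, had -0.11 with 3 probes between -0.26 and -0.06. But it turned positive under 6 of 17 processing alternatives, up to 0.35 with normexp. Among these was each alternative that used the pixel mean in place of the median, normexp included. RPL12 had -0.07 at 30379 against 26993, its 6 probes spanning -0.11 to -0.02, and it turned positive with loess (0.05) and with normexp. RPLP0 and RPLP2 kept their negative sign under all 17 alternatives.

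RPL5 and RPL11 bind the 5S ribosomal RNA and enter the large subunit with it as a single particle. When ribosome assembly is disturbed, the same particle binds the ubiquitin ligase MDM2. These partners differed from each other. RPL5 was higher in low feed efficiency at each of its 5 probes, which read 13683 against 8420, 11836 against 7099, 10224 against 6195, 8041 against 4664, and 1645 against 1033. The relative differences of these probes lay between 0.44 and 0.55, and the gene's value of 0.47 corresponds to 1.38-fold. RPL11 had a single probe, at 34746 against 30887, with a relative difference of -0.07 that turned positive under 4 of 16 alternatives. The gap between the partners is larger than the pooled SD over probes of a gene, but RPL11 has no second probe to set beside it. Of 4 large subunit proteins taken here as binders of MDM2 (RPL5, RPL11, RPL23 and RPL26), 3 lay above the median of all genes. RPL23 was at 0.08 and RPL26 at 0.29. The list of binders need not be complete. MDM2 itself, named after its values were seen, read 242 against 182 (0.18).

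At the face that meets transfer RNA, 4 of 5 genes lay below the median of all genes. RPL3, which reaches towards the peptidyl transferase centre, read 17768 against 17992. Its relative difference was -0.25, and all 7 of its probes were negative, between -0.40 and -0.11. The value shrank to -0.01 with normexp, which here used the pixel mean. With the pixel mean alone it was -0.05, and -0.11 after background subtraction. The brightest probe is chosen anew under each setting, and another RPL3 probe, at 18296 against 16771, had -0.11 in the main processing. Whether the probe changed was not tested. RPL10, which joins the subunit last in the cytoplasm and lies near the transfer RNA, read 34620 against 34196, a relative difference of -0.22. Its 6 probes were also all negative, from -0.22 to -0.02. RPL8 had -0.08 (43508 against 39094) and RPL10A, the protein of the L1 stalk that guides spent transfer RNA out, -0.002 (27429 against 23325); both took either sign across alternatives. RPL36A, which touches transfer RNA at the exit site, went the other way. Its probes read 11150 against 7615 and 4837 against 3005, relative differences of 0.31 and 0.45, and it stayed positive under all 17 alternatives. The near-identical RPL36AL, which is no member, was printed in 4 spots and had 0.53 at 7290 against 4276, so signal of the pair may be shared between their probes.

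Around the exit tunnel 6 of 8 genes lay above the median of all genes, with a median relative difference of 0.16. RPL4 and RPL17 line the tunnel. RPL4 read 18411 against 13350, and its 5 probes lay between 0.23 and 0.38. For RPL17, which read 30786 against 22532, all 7 probes were higher in low feed efficiency, between 0.21 and 0.44, the brightest giving the smallest difference. Among the proteins around the exit, RPL26 had 0.29 from a single probe at 28937 against 20157, RPL22 0.30 with probes at 0.30 and 0.25, and RPL35 0.10 with 3 probes between -0.01 and 0.12. RPL31 and RPL39 sat at 0.01 and -0.004 and took either sign across alternatives. The 6 detected probes of RPL31 read from 34707 to 52679 in low and from 30789 to 44339 in high feed efficiency, all with relative differences between -0.06 and 0.04. RPL23A, a docking site for factors that meet the new chain, had -0.02 at 40583 against 35035, while its dimmest probe read 14674 against 16765 (-0.43) and the other 3 lay between -0.02 and 0. Its sign turned under 5 of 17 alternatives, to 0.10 with loess.

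Of the proteins that contact the small subunit, RPL19, RPL24 and RPL30 were grouped here, and the group is not a full list. RPL30 read 10398 against 6506, a relative difference of 0.44, and its second probe 7186 against 5130 (0.25). RPL24 had 3 probes, at 18984 against 14181, 17710 against 13266 and 4847 against 3405, with relative differences of 0.19, 0.18 and 0.27. Both genes stayed positive under all 17 alternatives. RPL19 lay on either side of 0, with -0.06 at its brighter probe (35950 against 31814) and 0.10 at the other (28032 against 22187).

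**Figure D4:**
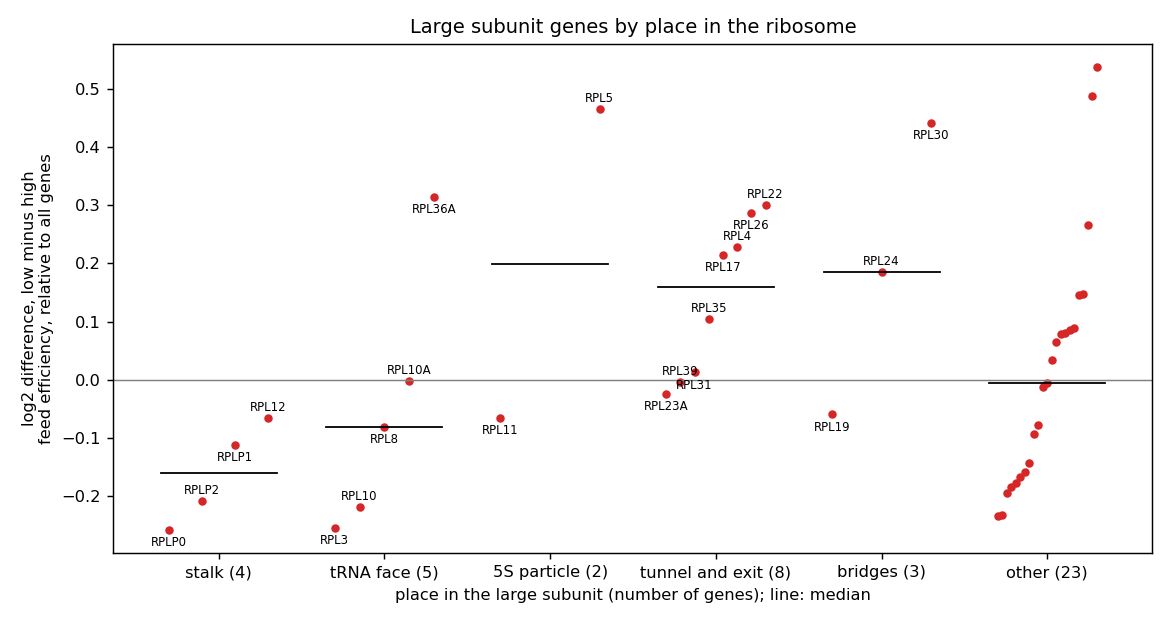
Relative log2 difference of the 45 large subunit genes (points, brightest probe), grouped along the horizontal axis by place in the ribosome, with a line at the median of each group. The 4 stalk genes lie below 0 and 6 of the 8 tunnel and exit genes above it, where 26.3% of the 464 genes of like brightness lie above. This depends on the processing: with loess RPLP1, RPL12, RPL8, RPL10A, RPL11, RPL23A, RPL39 and RPL19 turned positive.

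The remaining 23 genes, which were put in none of these groups, split 11 above and 12 below the median of all genes and held the largest value of the set. RPL15, a protein of the subunit's core, had 0.54 (1.45-fold) from a brightest probe at 39733 against 23261. No other RPL15 probe came near this. The next brightest read 9080 against 9500 (-0.30) and 8484 against 7617 (-0.08), and the 5 dimmer ones lay between 0.07 and 0.28. The median over its probes gave 0.20, and the use of spots flagged good alone gave -0.30, so the value of RPL15 rests on a single probe. RPL9 rests on more. Its 5 RefSeq-matched probes ran from 8541 against 5524 to 20198 against 12242, with relative differences of 0.39 to 0.49, while a probe matched to an expressed sequence tag alone read 79 against 87 (-0.37). RPL6 had a like pattern, with 7 RefSeq-matched probes between 0.14 and 0.45 (25681 against 18151 at the brightest) and a tag-matched probe at 307 against 371 (-0.51).

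RPL14 and RPL35A, also of this group, lay on the higher side at 0.15 each. RPL14, a surface neighbour of RPL6, read 32609 against 25015 and reached 0.56 with normexp. For this gene the pixel mean alone gave 0.52, and 0.46 with background subtracted. RPL35A had 5 probes that gave nearly the same value from 458 to 34936 in low and from 354 to 26825 in high feed efficiency, between 0.13 and 0.17. RPL21, RPL23, RPL27A and RPL37 had relative differences of 0.03 to 0.09 and stayed positive under all their alternatives.

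Examples on the lower side were RPL13A at 44693 against 44570 (-0.23), RPL28 at 4469 against 4341 (-0.19), RPL13 at 34808 against 33576 (-0.18), RPL29 at 30753 against 29520 (-0.18) and RPL18 at 50180 against 47862 (-0.17). RPL13A is known to leave the ribosome in interferon-treated monocytes and hold back translation of inflammatory messages. All detected probes of these 5 genes were negative, and all of the genes but RPL18 stayed negative under every alternative. RPL18 turned under 1, to 0.002 with quantile normalization. The spread was wide in RPL37A, whose probes at 27327 against 23400 (-0.01) and 25655 against 20096 (0.12) stood beside a dim one at 568 against 251 (0.94). RPL7 had 7 probes between -0.15 and 0.08 and turned negative as the mean or the median over probes.

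Over all members, 28 genes kept their sign under every alternative in which they had a value, 17 above and 11 below the median of all genes, and 17 took either sign. Not every alternative could turn a sign. Scaling on detected probes or on spike-in controls leaves centred values unchanged. The background cuts and the saturation and not-found settings hardly move the value of a bright probe. RPL10, for example, stayed between -0.225 and -0.216 under them. Examples with at least 3 probes, all on the same side, are RPL5, RPL17, RPL4 and RPL24 above and RPL3, RPL10, RPLP2 and RPL13 below, chosen after their values were seen. All probes of RPL5 and RPL17, most of RPL4 and RPLP2 and some of RPL10 were listed with more than 1 Ensembl transcript. Signal of near-identical copies may be mixed in these. No probe of RPL24, RPL3 or RPL13 was so listed.

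Mutations in 9 of the large subunit genes listed here cause Diamond-Blackfan anaemia in people, an inherited failure of red cell production. Of these, RPL5, RPL15, RPL26, RPL27, RPL31, RPL35, RPL35A, RPL11 and RPL18, 6 lay above the median of all genes, and their median relative difference was 0.10. None was 1.5-fold apart, although RPL15 passed that size under the alternatives named above, and RPL5 and RPL26 with spike-in scaling.

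The 32 genes of the small subunit, whose proteins form the decoding part of the ribosome and are made in step with those of the large subunit, spanned a similar range, -0.29 to 0.40, with a median of -0.09 and 10 on the upper side. None was 1.5-fold apart except with spike-in scaling, where 4 were. RPS3A was highest (38000 against 24398) and RPS2 lowest (44631 against 46473). No test of a difference between the subunits was possible with 1 array in each group. Of 8 genes that are copies or close relatives of large subunit genes, 6 had a value, 4 above and 2 below the median of all genes. RPL22L1, a relative of RPL22, was farthest from 0 at -0.54 (6958 against 8598), but its 4 probes ran from -0.54 to 0.39.

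Genes that build or accompany the large subunit gave no common direction past these sizes. Of 17 measured assembly factors 12 lay above the median of all genes, with a median of 0.06, and 1 of them, PPAN, was 2-fold higher at 36 against 13, near background. The factor farthest on the lower side read 14 against 22 (-0.89), also near background. A further 15 translation genes, most with the same pyrimidine tract, had a median of 0.03, with 9 on the upper side, and EIF3F was farthest from 0 at -0.45 (2762 against 3195). Among 11 measured genes of ribosomal RNA transcription and growth control, the median was -0.11 and 5 lay above. UBTF, which activates RNA polymerase I, was farthest from 0 at 306 against 167, although its 3 probes ran from -1.09 to 0.64.

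Blood cell markers lay on both sides of the median of all genes. The neutrophil markers S100A8, S100A9 and S100A12 lay above the median of all genes by 0.14 to 0.26, and HBA, HBB and HBG by 0.17 to 0.37, whereas ALAS2, the haem synthesis enzyme of red cell precursors, read 112 against 248 (-1.38). CD3E, CD3D and CD2 of T cells lay below it, between -0.12 and -0.08, the B cell markers between -0.20 and 0.15, and NKG7 of natural killer cells at -0.61. The marker of all leukocytes was at -0.04, the monocyte markers at -0.08 and 0.35, and the platelet markers at -0.02 and 0.22. These values are of brightest probes. Other probes can differ, with 1 of CD3E at 0.43 and 1 of a B cell marker at -0.29. The part of blood cell types in the differences among large subunit genes was not tested.

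**Figure D5:**
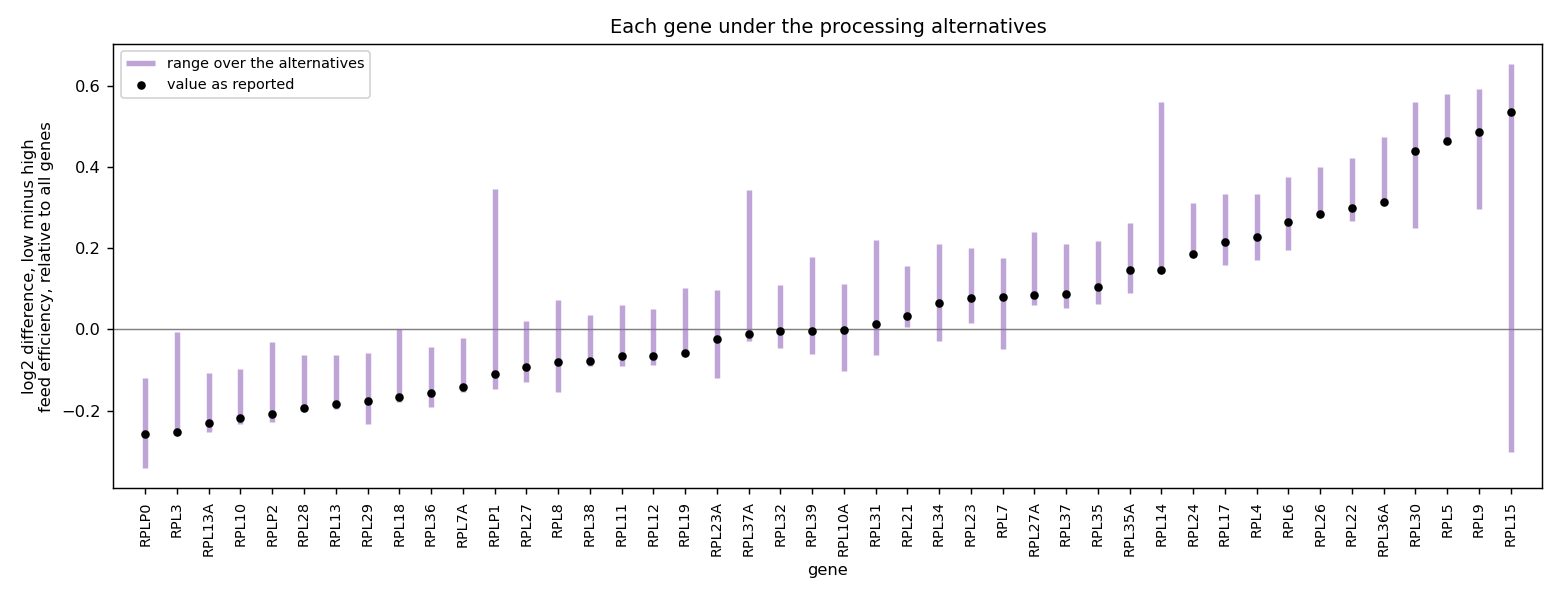
Relative log2 difference of 44 large subunit genes as reported (points) and its range over the processing alternatives (bars), with genes in order along the horizontal axis. RPL5 stays between 0.46 and 0.58 and RPLP0 between -0.34 and -0.12, while RPL15 runs from -0.30 to 0.65.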

How the data were processed

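Whole blood RNA of 1 low and 1 high feed efficiency specimen was read on 1 slide in 1 scan, per the file headers. Each deposited file gives spot intensity at 532 nm from GenePix Pro 6.1.0.4, not normalized, with background taken from negative controls, per the file headers. Agilent Feature Extraction is named in the submitters' processing notes. The same deposited files hold, for each spot, its saturated pixels in percent and a score for its flag (100 good, 0 unflagged, -50 not found). The values in the authors' deposited table are log2. Its rows followed the scanner intensities only after a move by 1 row (Spearman's rho 0.077 and 0.072 before, 1.00 after), and how it was normalized is not stated in the labels.

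Spots flagged as not found although above background were dropped from both arrays, leaving 43096 probes. Spots of a probe were averaged, divided by the array's 75th percentile and taken to log2. Background ended 3 robust SDs above the median of 153 negative controls. Genes are the array's own names. RefSeq matches used the gene table of assembly ARS-UCD2.0 for names only. Python 3.11.15 was used, with limma 3.58.1 for normexp on the pixel mean (offset 50), and the script was tested on simulated data. Alternatives covered background correction, normalization, filters, flags, saturation and choice of probes. Where a gene took its brightest probe, that probe was chosen anew under each alternative. Centring single genes on the median of all genes was added to the plan later. Full values were planned for the 5 highest and 5 lowest members, the 3 with the widest spread over probes, the stalk and 5S proteins, and the gene farthest from 0 in each comparison list; other members are named under their place in the ribosome. A few genes, among them 1 of the 5 lowest members, are not reported here by name. Members, lists and rules were chosen with earlier results of these data known.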

Additional observations from a re-analysis of the deposited data

How the results depend on the processing

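Under all 17 other settings of background, normalization, filter, flag, saturation and probe choice, no large subunit gene was 2-fold apart, and the median relative difference stayed between -0.03 and 0.11. At 1.5-fold, counted under the other settings after seeing the data, the number rose from 0 to 1 with normexp, quantile normalization and the authors' deposited table, 2 with loess and 8 with spike-in scaling, and was 0 under the other 12. At 4-fold, with the main processing, it was 0. The median was 0.13 relative to genes as bright as the dimmest member, a comparison added after seeing the data. The pooled SD over probes of a gene was 0.29 in place of 0.17 with no background cut, where 11 more member probes near 0 enter, and 0.12 with probes of at least 1000 only, also added later. Of 755 single-gene values under alternatives, 20 moved by more than 0.17, but many of the 755 come from settings that hardly can move a centred value. Over all genes, the counts 2-fold higher and lower were 37 and 58, but 823 and 898 with no background cut, 228 and 20 with spike-in scaling, 16 and 35 with a cut at 5 robust SDs, 6 and 20 with brighter probes and 8 and 13 with spots flagged good. A block for slide or scan could not be fitted, since both arrays share them. No paired analysis was possible because each group has 1 array.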
